A study of Mus musculus with 3 samples.

Results

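The genes described here encode the secreted and membrane-bound zinc proteinases of the extracellular matrix, with their relatives and inhibitors, in mouse skin papillomas. Members were the gene identifiers whose mouse symbol begins with Mmp, Adamts or Adamtsl followed by a digit, together with Timp1, Timp2 and Timp4. This gave 50 of the 24028 identifiers in the count table: 23 Mmp, 19 Adamts, 5 Adamtsl and 3 Timp genes. Papillomas are benign epidermal tumours, here raised in C57BL/6 mice by DMBA, a carcinogen, followed by TPA, a phorbol ester that promotes tumours. One library represented each genotype and was made from RNA of 3 pooled tumours: wild-type mice with endogenous galectin-7, Lgals7-/- mice without the gene, and Tg46 transgenic mice. The Tg46 transgene expresses galectin-7, a lectin of stratified epithelia, from the keratin 14 promoter, which is active in basal keratinocytes. Mice of every genotype received both DMBA and TPA, and no untreated skin was analysed here.

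Matrix metalloproteinases (the Mmp genes) are made as inactive precursors and, once activated, cut collagens, gelatins, laminins and other matrix proteins. The ADAMTS enzymes add thrombospondin repeats that tie them to the matrix, where they trim proteoglycans, process procollagens or cut von Willebrand factor. The ADAMTS-like proteins share those repeats but lack the catalytic domain, and the TIMPs are the tissue inhibitors that bind the active enzymes. In skin these genes are known from wound repair, hair cycling and tumour invasion. Many Mmp promoters carry a binding site for AP-1, the Fos and Jun dimer. That element is also called the TPA response element, since phorbol esters such as TPA act through it.

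Because TPA was the promoter of these tumours, the RefSeq start-site windows of the members (GRCm38.p6, 300 bases each, most of them before the start) were searched for the AP-1 letters TGAGTCA and for TATAAA on both strands (on the other strand AP-1 reads TGACTCA). A window was found for 35 of the 50 members, and 7 of those 35 genes (20%) held TGAGTCA, against 5.95% of all 27025 genes with a window. All 7 lay in the Mmp cluster of chromosome 9, and 0 of the 17 Adamts, Adamtsl and Timp genes with a window had the match. All 10 Mmp genes of that cluster had a window. No window was found for Mmp2, Mmp9, Mmp16, Mmp17 and Mmp19, all outside the cluster. The same held for 9 Adamts genes, Adamts4 and Adamts5 among them, and for Adamtsl1. Those genes were not searched. The 7 follow because they share this element next to a TATAAA, 80 bases each, 5′ to 3′ along the gene's strand in chromosome order, with AP-1 and TATAAA matches in capitals.

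Mmp13: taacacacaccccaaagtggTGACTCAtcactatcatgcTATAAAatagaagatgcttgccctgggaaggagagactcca

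Mmp12: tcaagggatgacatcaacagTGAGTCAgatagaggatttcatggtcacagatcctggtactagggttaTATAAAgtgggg

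Mmp1b: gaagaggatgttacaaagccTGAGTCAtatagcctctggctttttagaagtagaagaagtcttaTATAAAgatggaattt

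Mmp3: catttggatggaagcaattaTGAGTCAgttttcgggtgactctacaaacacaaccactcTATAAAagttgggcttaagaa

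Mmp1a: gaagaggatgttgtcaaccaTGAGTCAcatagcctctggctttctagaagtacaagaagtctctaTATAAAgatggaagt

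Mmp10: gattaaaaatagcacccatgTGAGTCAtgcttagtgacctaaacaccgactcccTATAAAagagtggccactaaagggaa

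Mmp7: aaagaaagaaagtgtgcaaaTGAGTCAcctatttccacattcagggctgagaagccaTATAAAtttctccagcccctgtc

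These 80-base stretches lie at Mmp13 chr9:7272459-7272538 (plus strand), Mmp12 chr9:7347310-7347389 (plus strand), Mmp1b chr9:7388060-7388139 (minus strand), Mmp3 chr9:7445756-7445835 (plus strand), Mmp1a chr9:7464048-7464127 (plus strand), Mmp10 chr9:7502259-7502338 (plus strand), Mmp7 chr9:7692007-7692086 (plus strand). For Mmp12 the window is that of the second of its starts. The AP-1 match began between 93 bases (Mmp1b) and 35 bases (Mmp13) before the annotated start. In each of the 7 windows a TATAAA match followed downstream of it. That TATAAA began 29, 28 and 26 bases before the annotated start in Mmp10, Mmp1a and Mmp7. In Mmp1b, Mmp13 and Mmp3 it began 49, 16 and 7 bases before the start. In Mmp12 it began at base 5 after the start. TATAAA was found in 12 of the 35 member genes (34.3%), against 15.7% of all genes with a window, and in 9 of the 10 chromosome 9 Mmp genes. These genes are paralogues, so the matches are not independent: over their 300-base windows Mmp1a and Mmp1b were 81.3% identical, and Mmp3 and Mmp10 60.3%. A match describes the letters and does not show that AP-1 was bound.

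The libraries were shallow, with total counts of 172011 (wild-type), 312600 (Lgals7-/-) and 354499 (Tg46). Lgals7 held 0, 2 and 4 counts in these libraries, too few to check the genotype labels. Ratios below compare 1 library with another after scaling of library sizes (levels in CPM, the count as a share of the scaled library size). Each is followed by its exact 95% interval, which covers counting error only, and no difference has a replicate check. Genes with 10 counts or more in at least 1 library were tested. Those with a difference of 2-fold or more and an interval without 1 were called. A gene at 0 counts in wild-type could lie at up to 17.4 CPM, the level of 3 counts. In such bulk tumour RNA, fewer cells of a type and less RNA per cell cannot be told apart. Exons of 12 of the 50 members (24%) overlap exons on the opposite strand, against 24.4% of all annotated genes. No source used here says whether reads were counted by strand, so reads of such a pair cannot be assigned.

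As a family these genes stood at nearly the same summed level in the 3 libraries. The 50 members together held 387 wild-type counts, 741 Lgals7-/- counts and 801 Tg46 counts, or 2240, 2251 and 2390 CPM. The summed ratio was 1.004 (0.888 to 1.14) for Lgals7-/- and 1.07 (0.944 to 1.21) for Tg46, both against wild-type, and 1.06 (0.960 to 1.17) for Tg46 against Lgals7-/-. Single members ranged from 0 to 29 counts in wild-type (median 6), from 2 to 58 in Lgals7-/- (median 16) and from 1 to 78 in Tg46 (median 13.5). Mmp3, Mmp7, Mmp10, Mmp25, Mmp28 and Timp1 were at 0 in wild-type, and no member was at 0 in the other two libraries.

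Of the 50 members, 41 passed the filter on low counts (17 Mmp, 18 Adamts, 5 Adamtsl and Timp2) and 20 of these were called in at least 1 comparison. Against wild-type, 5 were called higher in Lgals7-/- (12.2% of the 41, against 13.3% of all 12940 genes tested) and 7 lower (17.1%, against 13.7%). Tg46 had 7 called higher than wild-type (17.1%, against 13.7%) and 5 lower (12.2%, against 13.9%). In Tg46 over Lgals7-/- 4 were called higher (9.76%, against 8.43%) and 3 lower (7.32%, against 7.73%). These shares lay near those of all genes tested, so the calls are reported as values of single genes. The median log2 ratio of the 41 was 0.29, 0.30 and 0.026 in the same order, beside 0.10, 0.11 and -0.026 over all genes tested. With the 3 tested genes at 0 in wild-type set to their bound, the medians against wild-type were 0.29 and 0.099. Of the 11 members that reached 10 counts in only 1 library, 9 were called. A gene admitted by its 1 high count tends to differ in comparisons that use that library.

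**Figure D1:**
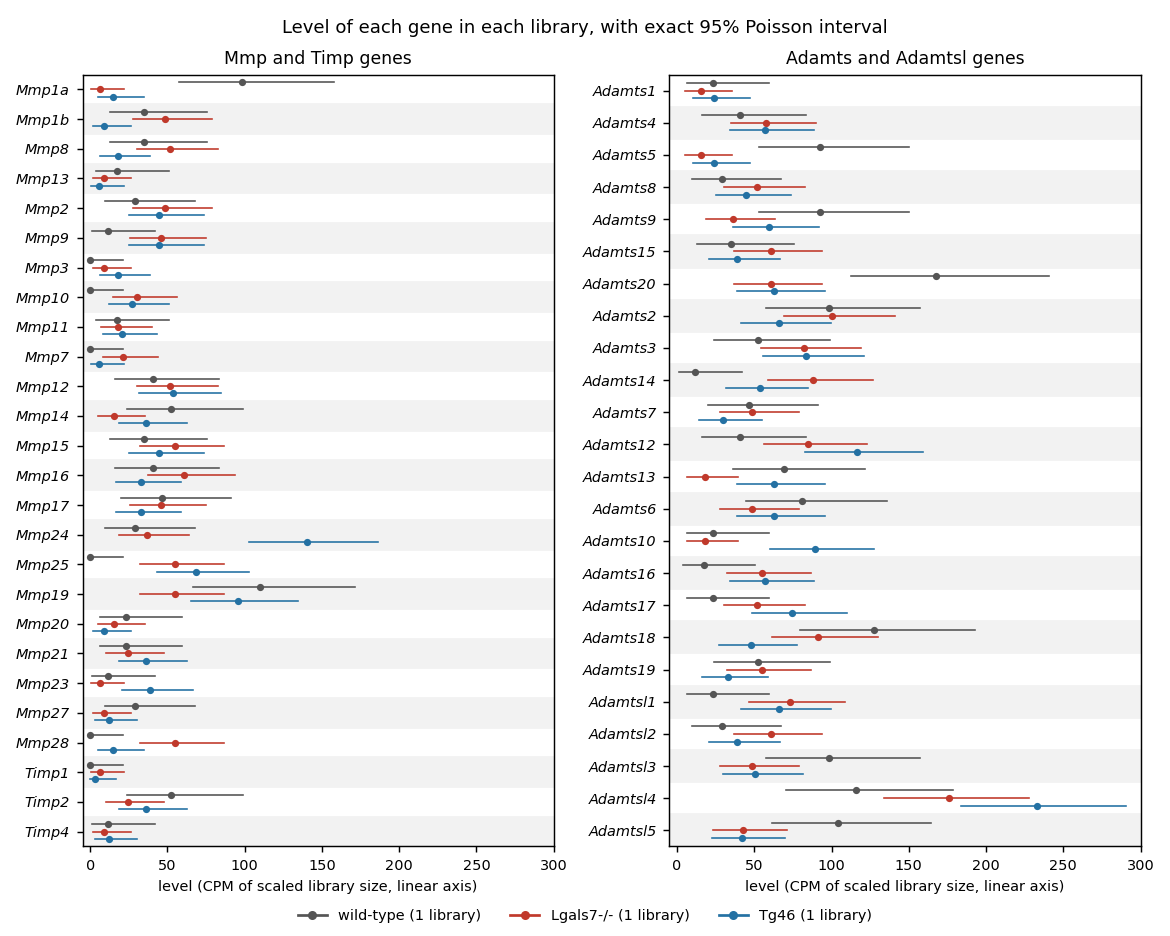
Level of each of the 50 genes in the wild-type, Lgals7-/- and Tg46 libraries (horizontal axis, CPM, linear), as points with exact 95% Poisson intervals, 1 library per genotype. Most intervals overlap between libraries; Mmp1a, Adamts5 and Adamts20 lie higher in wild-type, Mmp24 and Adamts10 in Tg46, and Adamtsl4 has the highest level in Tg46, at 233 CPM.

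The collagenases, which cut fibrillar collagen, summed to their highest level in wild-type and their lowest in Tg46, with Mmp1a the gene that differed most among them. Mmp1a (Entrez 83995, chromosome 9, 7464141 to 7476869, plus strand), an interstitial collagenase, held 17 counts in wild-type against 2 in Lgals7-/- and 5 in Tg46. It was high in wild-type alone. Its level was 13.3-fold lower in Lgals7-/- (3.84 to 145) and 6.17-fold lower in Tg46 (2.34 to 22.9) than in wild-type. Mmp1b, the neighbouring copy, held 6, 16 and 3 counts and was 4.80-fold lower in Tg46 than in Lgals7-/- (1.55 to 29.1). Its order among the libraries was thus another than that of Mmp1a. Reads could be split between these copies, since 12.6% of the 36-base stretches of Mmp1a transcripts also occur in Mmp1b, and Mmp1b overlaps Mmp12 on the opposite strand. Added together, the pair held 23, 18 and 8 counts and was 2.42-fold lower in Lgals7-/- (1.26 to 4.79) and 5.36-fold lower in Tg46 (2.41 to 14.4) than in wild-type.

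Mmp8, the collagenase of neutrophil granules, held 6 wild-type, 17 Lgals7-/- and 6 Tg46 counts. It was 2.74-fold lower in Tg46 than in Lgals7-/- (1.09 to 8.94) and was not called against wild-type. Mmp13, collagenase-3, held only 3, 3 and 2 counts and was not tested. The 4 collagenases summed to 185 CPM in wild-type (127 to 261), 115 in Lgals7-/- (81.7 to 158) and 47.7 in Tg46 (27.3 to 77.5). The sum was 3.82-fold lower in Tg46 than in wild-type (2.07 to 7.57) and 2.38-fold lower than in Lgals7-/- (1.32 to 4.65). Lgals7-/- over wild-type gave 0.622 (0.379 to 1.03), which became 1.24 (0.673 to 2.48) without Mmp1a. Without Mmp1a the Tg46 sum was still below wild-type, with a ratio of 0.382 (0.157 to 0.881). Without Mmp8 the interval of Tg46 over Lgals7-/- included 1, at 0.480 (0.197 to 1.04).

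The gelatinases, which cut denatured collagen and the type IV collagen of basement membranes, held fewest counts in wild-type, and their sum in Tg46 was 0.951 of that in Lgals7-/- (0.556 to 1.62). Mmp9 held 2 counts in wild-type against 15 in Lgals7-/- and 15 in Tg46. Its ratios over wild-type, 3.25 (0.915 to 35.5) and 3.196 (0.899 to 34.8), had intervals that included 1. Mmp2 held 5, 16 and 15 counts and was not called either. Summed, the pair was 2.20-fold higher in Lgals7-/- than in wild-type (1.004 to 6.25) and 2.10-fold higher in Tg46 (0.951 to 5.96), the first interval only just excluding 1. Without Mmp2 neither did, as the values of Mmp9 above show.

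Among the stromelysins, which have broad matrix substrates and activate other precursors, Mmp10 was absent from the wild-type counts. It held 0 counts there, 10 in Lgals7-/- and 9 in Tg46, and was at least 1.75-fold and 1.55-fold higher than the level of 3 counts in wild-type, with exact intervals of the ratios from 1.18 and 1.02. The Tg46 call was lost with DESeq2 size factors and with total counts. Both calls were lost when 5 counts rather than 0.5 were added to each library. Mmp3 held 0, 3 and 6 counts and Mmp11, stromelysin-3, held 3, 6 and 7. Neither reached the filter. The 3 genes together stood at 17.4 CPM in wild-type (3.58 to 50.7), 57.7 in Lgals7-/- (34.8 to 90.1) and 65.6 in Tg46 (41.1 to 99.4). The ratio to wild-type was 2.92 (0.979 to 17.5) in Lgals7-/- and 3.31 (1.14 to 19.7) in Tg46, the latter 1.99 (0.614 to 12.2) without Mmp10. Mmp7, matrilysin of glandular epithelia, held 0, 7 and 2 counts and was not tested. Mmp12, the macrophage metalloelastase, held 7, 17 and 18 counts and showed no call, with a ratio of 1.22 (0.502 to 3.64) in Lgals7-/- and 1.27 (0.528 to 3.76) in Tg46 over wild-type.

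The membrane-type enzymes are held at the cell surface. Mmp24 (MT5-MMP, Entrez 17391, chromosome 2, 155775342 to 155818367, plus strand), best known from the nervous system, held 5 wild-type, 12 Lgals7-/- and 47 Tg46 counts. The Tg46 library stood apart, with Mmp24 4.45-fold higher than in wild-type (1.94 to 15.6) and 3.73-fold higher than in Lgals7-/- (2.01 to 7.97). BC029722, whose exons overlap it on the opposite strand, held 2, 2 and 5 counts. Mmp25 (MT6-MMP, Entrez 240047, chromosome 17, 23628315 to 23645269, minus strand), a lipid-anchored enzyme of leukocytes, held 0, 18 and 23 counts. Against the level of 3 counts in wild-type it was at least 3.15-fold higher in Lgals7-/- and at least 3.95-fold higher in Tg46. That bound leaves out counting error in the higher library, and the exact intervals of the ratios to wild-type began at 2.31 and 2.96. Mmp14 (MT1-MMP), the surface activator of Mmp2, held 9, 5 and 12 counts and was 3.29-fold lower in Lgals7-/- than in wild-type (1.03 to 13.0). That call was lost under 3 of the 4 other scalings, all but DESeq2 size factors. The 6 membrane-type genes summed to 203 CPM in wild-type against 267 in Lgals7-/- and 355 in Tg46. Tg46 over wild-type gave 1.74 (1.19 to 2.63), and 1.22 (0.798 to 1.96) without Mmp24. Tg46 over Lgals7-/- gave 1.33 (0.9998 to 1.77), and 0.931 (0.665 to 1.30) without Mmp24, so the class difference rested on that gene.

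Of the remaining Mmp genes, Mmp28 and Mmp23 were called and Mmp19 had the highest level. Mmp28 (epilysin), an enzyme of keratinocytes, held 0 counts in wild-type against 18 in Lgals7-/- and 5 in Tg46. The Lgals7-/- library was the high one: at least 3.15-fold above the level of 3 counts in wild-type (exact interval of the ratio from 2.31), with Tg46 3.42-fold lower than Lgals7-/- (1.31 to 12.6). Its opposite-strand neighbour 1700020L24Rik held 11, 8 and 22 counts. Mmp23 held 2, 2 and 13 counts and was 5.30-fold higher in Tg46 than in Lgals7-/- (1.45 to 58.3). Mmp19, which also overlaps 2 genes on the other strand, held 19, 18 and 32 counts, and its ratio of 0.498 in Lgals7-/- over wild-type (0.246 to 1.001) missed the call, which it passed with DESeq2 size factors. Across all 23 Mmp genes the summed ratio was 1.13 (0.905 to 1.42) for Lgals7-/- and 1.20 (0.969 to 1.51) for Tg46 against wild-type, and 1.07 (0.897 to 1.27) for Tg46 against Lgals7-/-. For Tg46 over wild-type it was 1.27 (1.002 to 1.62) without Mmp19, the most counted Mmp gene. With TMM factors from all identifiers, chosen after seeing the data, it was 1.34 (1.08 to 1.68). The interval included 1 with DESeq2 size factors, with total counts and for members with no opposite-strand exon.

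**Figure D2:**
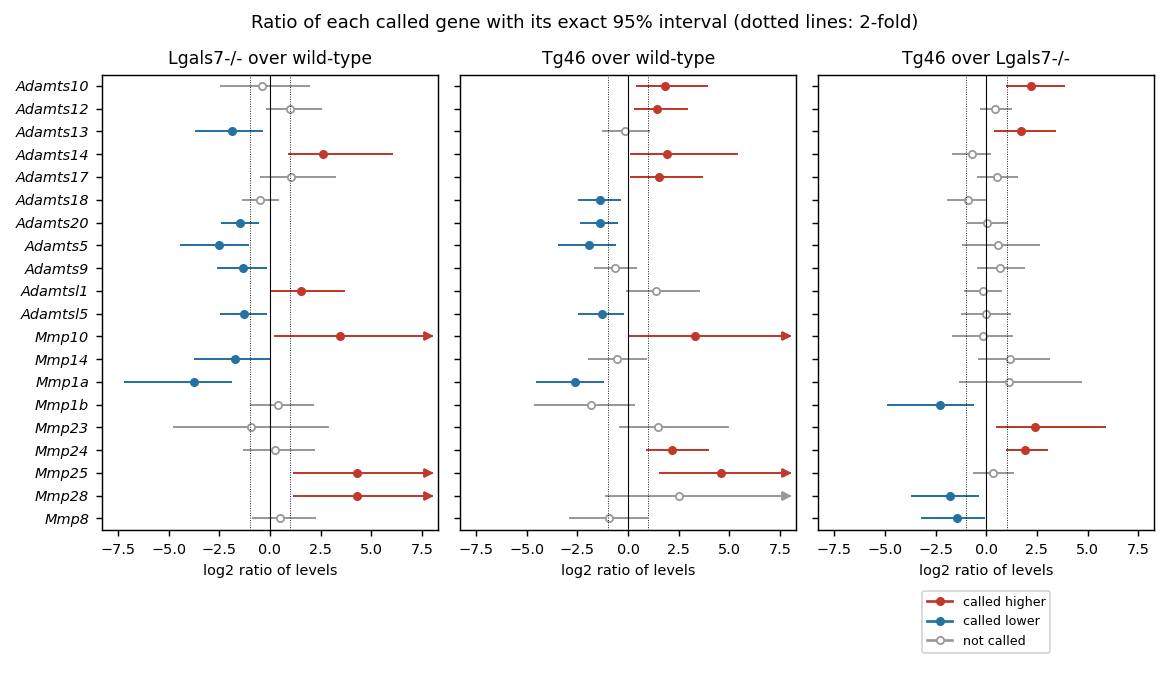
Log2 ratio (horizontal axis) of the 20 genes called in at least 1 of the 3 comparisons, with 0.5 counts added to each library and exact 95% intervals; arrows mark intervals that run beyond the axis. Filled points were called, and Mmp1a, Adamts5, Adamts20 and Adamtsl5 lie below 0 against wild-type in both comparisons, which share the wild-type library.

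Among the proteoglycan-cutting ADAMTS enzymes, Adamts5 and Adamts20 were lower in Lgals7-/- and in Tg46 than in wild-type, in comparisons that share the wild-type library. Adamts5 (aggrecanase-2, Entrez 23794, chromosome 16, 85858157 to 85901125, minus strand) held 16 wild-type, 5 Lgals7-/- and 8 Tg46 counts. It was 5.72-fold lower in Lgals7-/- (2.13 to 21.3) and 3.77-fold lower in Tg46 (1.57 to 10.5) than in wild-type. Adamts20, an enzyme of skin pigmentation that cuts versican, held 29, 20 and 21 counts and was 2.74-fold (1.51 to 5.15) and 2.66-fold lower (1.48 to 4.94). Adamts9, its closest relative, held 16, 12 and 20 counts and was called lower in Lgals7-/- alone, by 2.51-fold (1.13 to 5.88), a call lost with upper-quartile factors. Adamts4 (aggrecanase-1), at 7, 19 and 19 counts, Adamts8, at 5, 17 and 15, and Adamts15, at 6, 20 and 13, had ratios above 1 over wild-type in both libraries and were not called. Adamts1 held 4, 5 and 8 counts and was not tested. The members thus differed in direction. The 7 genes of the class summed to 480 CPM in wild-type (383 to 596), 298 in Lgals7-/- (242 to 363) and 310 in Tg46 (254 to 376). The sum was 1.62-fold lower in Lgals7-/- (1.19 to 2.18) and 1.55-fold lower in Tg46 (1.15 to 2.09) than in wild-type. Without Adamts20 both intervals included 1, with ratios of 0.756 (0.529 to 1.09) and 0.790 (0.556 to 1.14). The class members with no opposite-strand exon, Adamts20 among them, gave 0.478 (0.319 to 0.713) and 0.469 (0.313 to 0.700).

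Among the procollagen N-proteinases, which trim fibrillar procollagens, Adamts14 was lowest in wild-type. Adamts14 (Entrez 237360, chromosome 10, 61197112 to 61273419, minus strand) held 2 counts in wild-type against 29 in Lgals7-/- and 18 in Tg46. It was 6.19-fold higher in Lgals7-/- (1.93 to 65.8) and 3.82-fold higher in Tg46 (1.11 to 41.2) than in wild-type. Adamts3 held 9, 27 and 28 counts and was not called. The class summed to 162 CPM in wild-type against 270 in Lgals7-/- and 203 in Tg46, a ratio of 1.65 (1.08 to 2.65) for Lgals7-/- over wild-type. For Tg46 it was 1.24 (0.795 to 2.02), and 2.09 without Adamts2, the member with the most counts, with an interval that excluded 1.

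Besides Adamts14, Adamts10, Adamts12 and Adamts17 passed the call in Tg46 against wild-type, all higher. Adamts10, which acts on fibrillin microfibrils, held 4, 6 and 30 counts. Tg46 was its high library, 3.49-fold above wild-type (1.36 to 15.1) and 4.61-fold above Lgals7-/- (2.01 to 14.4). Adamts17, a relative of Adamts10 with mutations in a similar connective tissue disease, held 4, 17 and 25 counts and was 2.92-fold higher in Tg46 than in wild-type (1.11 to 12.7). Adamts12, which cuts cartilage oligomeric matrix protein, held 7, 28 and 39 counts and was 2.72-fold higher in Tg46 (1.27 to 7.61). In Lgals7-/- its ratio of 1.99 (0.896 to 5.69) was not called.

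Adamts13, the enzyme that cuts von Willebrand factor, was low in Lgals7-/-. It held 12 wild-type, 6 Lgals7-/- and 21 Tg46 counts, 3.66-fold lower in Lgals7-/- than in wild-type (1.32 to 12.4) and 3.25-fold higher in Tg46 than in Lgals7-/- (1.34 to 10.4). Adamts18 held 22, 30 and 16 counts and was 2.65-fold lower in Tg46 than in wild-type (1.34 to 5.43). Over all 19 Adamts genes these differences cancelled in the sum, with ratios of 0.924 (0.774 to 1.11), 0.966 (0.810 to 1.16) and 1.05 (0.899 to 1.22) in the 3 comparisons.

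Of the ADAMTS-like genes, Adamtsl4 had the highest counts of all 50 members in Lgals7-/- and Tg46, though not in wild-type. Adamtsl4, a fibrillin-binding matrix protein (Entrez 229595, chromosome 3, 95676201 to 95687927, minus strand), held 20 counts in wild-type against 58 in Lgals7-/- and 78 in Tg46. Its ratio of 1.97 in Tg46 over wild-type (1.22 to 3.47) excluded 1 but lay just under 2-fold, and it passed with upper-quartile factors. Adamtsl1 held 4, 24 and 22 counts and was 2.86-fold higher in Lgals7-/- than in wild-type (1.08 to 12.5). Adamtsl5 held 18, 14 and 14 counts and was 2.43-fold lower in Lgals7-/- (1.15 to 5.32) and 2.47-fold lower in Tg46 (1.17 to 5.42) than in wild-type. Both calls were lost with upper-quartile factors.

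Of the inhibitors, Timp1 and Timp4 held few counts in every library and Timp2 more. Timp2 held 9 wild-type, 8 Lgals7-/- and 12 Tg46 counts, Timp1 held 0, 2 and 1, and Timp4, which lies across Syn2 on the other strand, held 2, 3 and 4. Timp2, the only one tested, was not called, and a 2-fold difference was not detectable at this depth: its ratio of Lgals7-/- to wild-type was 0.470 (0.157 to 1.36). Timp3, which overlaps Syn3 and is not among the members, held 15, 18 and 13 counts. Within a library, the Mmp genes held 10.7 counts per count of the 3 Timp genes in wild-type (5.78 to 22.1), 19.5 in Lgals7-/- (11.2 to 37.2) and 16.2 in Tg46 (9.96 to 28.3). The intervals overlapped, and the Timp sums behind them were 11, 13 and 17 counts. These ratios leave out Timp3, which held more counts than the 3 Timp genes together in wild-type and Lgals7-/-. They therefore do not describe all the Timp inhibitors.

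**Figure D3:**
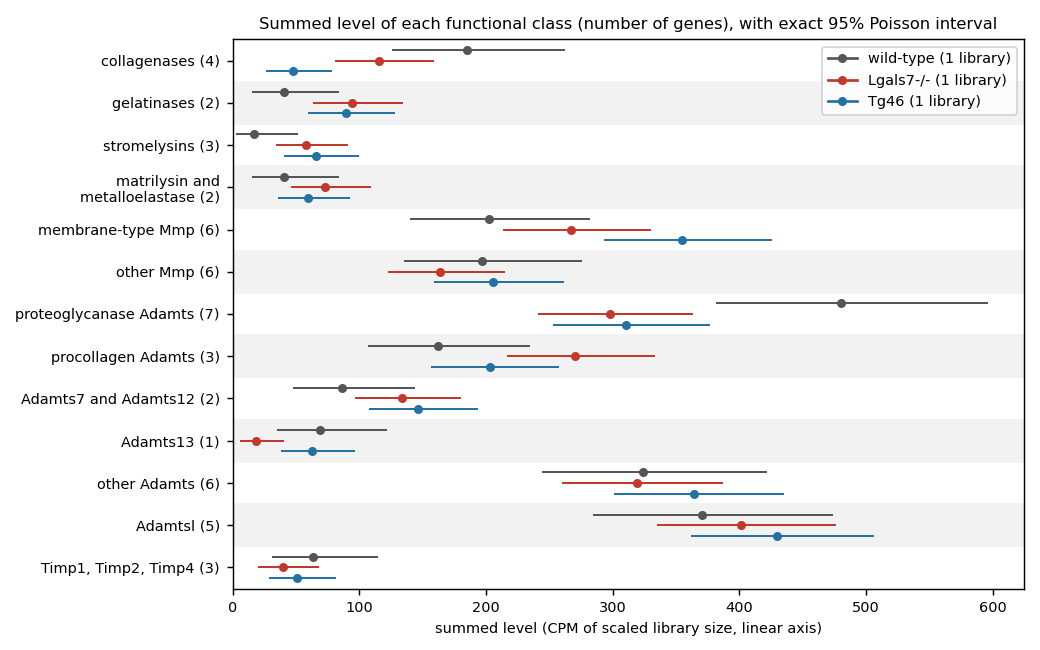
Summed level of each functional class (horizontal axis, CPM, linear; number of genes in brackets) in the 3 libraries, with exact 95% Poisson intervals. The collagenases lie at 185 CPM in wild-type and 47.7 in Tg46, and the proteoglycan-cutting Adamts genes lie at 480 CPM in wild-type against 298 and 310.

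The 15 members outside the naming rule (Adamts2, Adamts6, Adamts7, Adamts8, Adamts15, Adamts16, Adamts19, Adamtsl2, Adamtsl3, Mmp15, Mmp16, Mmp17, Mmp20, Mmp21 and Mmp27) held 3 to 17 counts in wild-type, 3 to 33 in Lgals7-/- and 3 to 22 in Tg46. Those of them that other paragraphs name were picked after their values were seen. None of the 15 was called in any of the 3 comparisons with the scaling used here.

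The 10 Mmp genes of chromosome 9 lie side by side within 427 kb (chr9:7272514-7699585), and the calls among them differed in direction. Against wild-type, Mmp1a was called lower and Mmp10 higher in both other libraries, while Mmp1b and Mmp8 were called only in Tg46 against Lgals7-/-, both lower. Mmp3, Mmp7, Mmp13, Mmp20 and Mmp27 were below the filter, and Mmp12 was not called. Summed, the cluster was 1.61-fold lower in Tg46 than in wild-type (1.07 to 2.39), and 1.14-fold lower (0.704 to 1.80) without Mmp1a. The 7 genes with an AP-1 match shown above held 33, 58 and 45 counts together, 191, 176 and 134 CPM. Their summed ratio to wild-type was 0.917 (0.592 to 1.46) in Lgals7-/- and 0.700 (0.439 to 1.14) in Tg46. Without Mmp1a these became 1.80 (1.04 to 3.43) and 1.27 (0.706 to 2.47), so both sums turn on that gene. The 3 cluster genes without a match, Mmp8, Mmp20 and Mmp27, had summed ratios to wild-type of 0.864 (0.444 to 1.78) in Lgals7-/- and 0.449 (0.196 to 1.01) in Tg46.

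**Figure D4:**
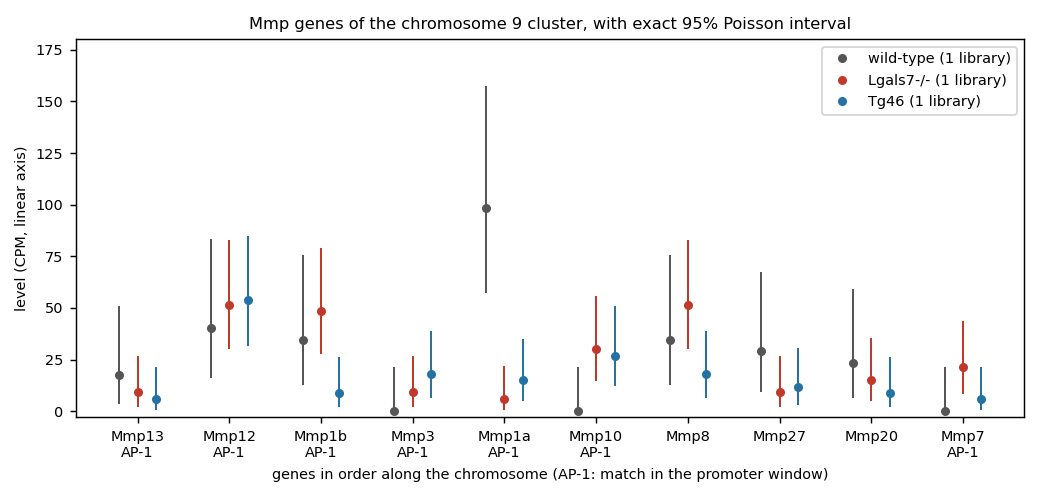
Level of the 10 Mmp genes of the chromosome 9 cluster in gene order (vertical axis, CPM, linear), with exact 95% Poisson intervals; AP-1 under a name marks a TGAGTCA match in the promoter window. Mmp1a stands at 98.4 CPM in wild-type, and its neighbours Mmp3 and Mmp10 at 0 there.

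Per kb of exon, most members lay above the summed level of chemosensory receptor genes. Whether those receptor genes are silent in skin was not tested. The 1496 chemosensory receptor genes (odorant, pheromone and taste receptors) stood at 3.26 CPM per kb in wild-type against 2.56 in Lgals7-/- and 2.37 in Tg46, and the 50 members at 7.73, 7.77 and 8.25. All annotated genes together stood at 9.86, 9.41 and 10.4. Above the receptor level lay 38, 45 and 46 of the 50 members in wild-type, Lgals7-/- and Tg46, and 33 did so in every library. Above 2 times that level lay 23, 36 and 38. The median of all annotated genes also lay above the receptor level, at 5.69, 6.78 and 6.60 CPM per kb. The member median was close to it, at 6.35, 7.07 and 7.40, so lying above the receptor level does not set the members apart. The highest levels per length were those of Adamtsl4 (27.6, 42.0 and 55.4 CPM per kb), Mmp19 (31.1, 15.5 and 27.0), Mmp1b (23.97, 33.5 and 6.18) and Mmp1a (48.6, 3.00 and 7.37). Averaged over the libraries, Adamtsl4 lay at percentile 96.3 of all annotated genes and Mmp19 at 92.3. Timp4 was the lowest member by that mean, at 1.96, 1.55 and 2.03, below the receptor level in every library. Some called genes crossed this level between libraries: Adamts5 stood at 8.58 in wild-type against 1.41 in Lgals7-/- and 2.21 in Tg46, and Adamts14 at 2.23, 17.0 and 10.3. Whether counts near that level come from transcripts of the gene was not tested.

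**Figure D5:**
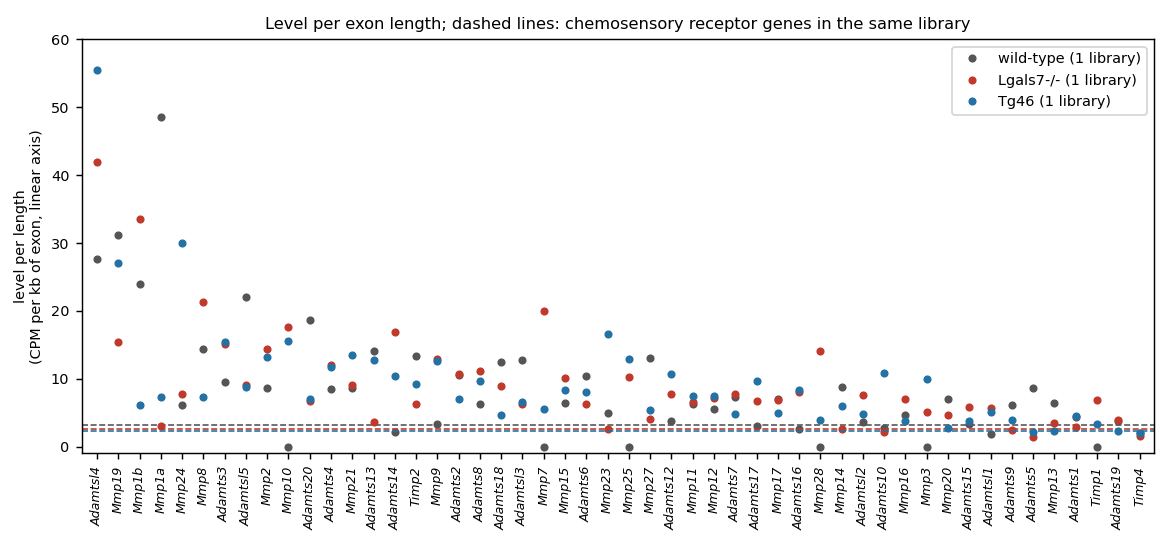
Level per exon length of the 50 genes (vertical axis, CPM per kb of exon, linear), ordered by their mean over the 3 libraries, 1 point per library; dashed lines give the chemosensory receptor genes of the same library at 3.26, 2.56 and 2.37. Adamtsl4, Mmp19, Mmp1b and Mmp1a lead, and 33 genes lie above the line of the same library in all 3.

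Genes that work with these proteinases were set beside the shares called over all genes tested (higher 13.3%, 13.7% and 8.43%, lower 13.7%, 13.9% and 7.73% in the 3 comparisons). With 9 to 15 genes tested per list, 1 gene moves a list's share by several percentage points. Of 10 tested genes that activate proteinase precursors (plasminogen system, proprotein convertases, transmembrane serine proteases), 1 was called higher and 2 lower in Lgals7-/- against wild-type, 0 and 1 in Tg46 against wild-type, and 1 and 1 in Tg46 against Lgals7-/-. Pcsk7, a proprotein convertase, held 17, 32 and 13 counts and was 2.51-fold lower in Tg46 than in wild-type (1.16 to 5.68) and 2.45-fold lower than in Lgals7-/- (1.28 to 5.203). Pcsk5, another convertase, held 17, 15 and 33 counts, Plg, which encodes plasminogen, 14, 11 and 17, and Hpn, the transmembrane protease hepsin, 1, 14 and 7. The exons of Pcsk7 overlap those of Tagln and Rnf214 on the opposite strand. In the same order of comparisons, of 9 other inhibitors and binding partners tested, 2, 2 and 0 were called higher and 1, 0 and 0 lower. Papln, a matrix protein related to the ADAMTS family, held 7, 38 and 50 counts and was 2.69-fold higher in Lgals7-/- (1.26 to 7.56) and 3.47-fold higher in Tg46 (1.66 to 9.63) than in wild-type. Spock3, a testican, held 10, 6 and 8 counts and was called lower in Lgals7-/- than in wild-type.

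Of 12 related ADAM genes, which encode membrane-anchored sheddases, 0 were called higher and 2, 2 and 1 lower. Adam17, the sheddase of EGF receptor ligands, held 40, 32 and 32 counts and was 2.37-fold lower in Lgals7-/- (1.46 to 3.92) and 2.42-fold lower in Tg46 (1.49 to 3.99) than in wild-type. It overlaps Iah1 on the other strand. Adam11 held 20, 16 and 12 counts and was also called lower in both, and Adam33 held 3, 17 and 6 and was called lower in Tg46 than in Lgals7-/-. Of 15 matrix substrates tested, 2, 1 and 0 were called higher and 0, 0 and 2 lower. Acan, the aggrecan cut by Adamts4 and Adamts5, held 1, 28 and 35 counts, with ratios over wild-type of 9.97 (2.43 to 601) and 12.2 (3.03 to 733). The brain proteoglycan gene Bcan, at 6, 26 and 8 counts, was called lower in Tg46 than in Lgals7-/-.

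Of 7 lists of cell type markers, the keratinocyte and hair follicle sums differed between libraries, and the other sums had intervals that included 1 in every comparison. The 8 keratinocyte genes (Krt5, Krt14, Krt15, Krt1, Krt10, Trp63, Dsg3 and Dsc3), all detected in every library, summed to 550 CPM in wild-type (445 to 672), 1176 in Lgals7-/- (1061 to 1299) and 1376 in Tg46 (1253 to 1507). Most of these counts came from Krt1 (21, 132 and 156), Krt10 (25, 96 and 111) and Krt14 (20, 81 and 95). Trp63 alone of the 8 stood lower than in wild-type, at 11.7, 6.52 and 7.47 CPM per kb of exon. The 8 fibroblast genes summed to 388, 440 and 483 CPM, with Dpt, Thy1 and Twist2 at 0 in wild-type. Without the 3 collagen genes among them the sums were 63.7, 146 and 155 CPM, 2.21-fold (1.17 to 4.89) and 2.35-fold higher (1.26 to 5.18) than in wild-type. The 8 macrophage genes, relevant to Mmp12, summed to 295, 386 and 325 CPM, each detected in every library. The 7 neutrophil genes found, relevant to Mmp8, Mmp9 and Mmp25, summed to 133, 149 and 113 CPM with overlapping intervals. Of these S100a8 was at 0 in wild-type and Tg46, and Cxcr2 in Tg46. Only 2 neutrophil genes were tested, and they differed. Csf3r held 0, 16 and 12 counts and was called higher than wild-type in both other libraries. Mpo held 11, 13 and 12 counts and was not called. The 6 endothelial genes summed to 255, 225 and 218 CPM and the 6 mast cell genes to 116, 152 and 179, with Cma1 and Fcer1a at 0 in wild-type. Emcn, an endothelial gene with 14, 3 and 9 counts, was called lower than wild-type in both other libraries. Kit, the only mast cell gene tested, held 1, 28 and 36 counts and was called higher than wild-type in both. Cpa3, of the same list, went the other way with 9, 2 and 3 counts. The 7 hair follicle genes found summed to 1279, 4265 and 785 CPM, highest in Lgals7-/-. Tchh alone gave 160, 1202 and 209 of their 221, 1404 and 263 counts. The part of cell composition in the values of Mmp and Adamts genes was not tested.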

How the data were processed

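RNA of skin papillomas, 3 tumours pooled per genotype, was sequenced as 1 library each for wild-type, Lgals7-/- and Tg46, according to the extraction protocol. The table deposited by the authors holds raw read counts, as whole numbers, for each Entrez identifier. The submitters' processing notes name mm10. For aligner, counter, annotation and strand setting: not given in the sources used here. Symbols matched 23968 of 24028 identifiers in RefSeq (GRCm38.p6), which also gave gene positions and start-site windows. Exon lengths and opposite-strand overlaps came from GENCODE M21 (GRCm38, 23710 identifiers), whose coordinates share the mm10 build.

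Library sizes were scaled by edgeR 4.0.16 TMM factors (1.00, 1.05 and 0.945) computed in R 4.3.3 on the 12940 genes with at least 10 counts in 1 library or more. Ratios had 0.5 counts added to each library. Intervals are exact Clopper-Pearson (ratios) and Poisson (levels) at 95%, computed with Python 3.11.15 and scipy 1.17.1, and were tested on simulated data. They cover counting error only, because without molecular identifiers reads need not be independent molecules. Without replicates edgeR's quasi-likelihood test could not be fitted, so the text gives no p-value. A fold against a library at 0 counts is a bound against 3 counts in that library. It does not depend on the added counts, whereas the call does.

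Every called member was named, with the 8 highest per exon length and 21 chosen for their known roles, and in related lists up to 4 called genes per comparison. Some genes of the related lists are counted there but not reported by name here. The members, lists and naming rule were chosen with earlier results of these data known. Other settings tried were scaling by total counts, upper-quartile factors or DESeq2 1.42.0 size factors, testing without a filter, 5 added counts, thinned libraries, members with no opposite-strand exon, other call rules and classes without their most abundant member. TMM factors from all identifiers, and sums without Mmp1a, were chosen later, after seeing the data.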

Additional observations from a re-analysis of the deposited data

How the results depend on the processing

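No paired analysis was possible because the design holds a single library of each genotype. Called members are counted for Lgals7-/- against wild-type (the first), Tg46 against wild-type (the second) and Tg46 against Lgals7-/- (the third). Upper-quartile factors gave 8 (19.5% of the members tested, against 17.3% of all genes) and 11 higher (26.8%, against 18.2%) in the first 2 comparisons and 4 lower (9.76%, against 10.8%) in the first. Adding 5 counts left 3 and 3 higher in the first 2 (7.32% each, against 4.51% and 5.09%). The higher calls lost were Mmp10 and Adamtsl1 in the first and Mmp10, Adamts12, Adamts14 and Adamts17 in the second. Libraries thinned to the smallest total, with 28 members tested, gave 3 higher in the first (10.7%, against 12.2%) and 1 lower in the third comparison (3.57%, against 5.15%). The 32 tested members with no opposite-strand exon gave 1 lower in the third comparison (3.12%). The share beside it, 7.73%, is that of all 12940 genes tested, with or without such an exon, so the sets are unlike. Fold alone gave 8 and 12 higher in the first 2 (19.5% and 29.3%, against 25.3% and 25.6%). Where the whole interval had to lie past 2-fold, the higher calls were 2 (Mmp25, Mmp28), 1 (Mmp25) and 2 (Adamts10, Mmp24), and the lower ones 2 (Adamts5, Mmp1a), 1 (Mmp1a) and 0 (all genes 1.82%, 2.06%, 1.14%, 3.47%, 3.47% and 0.665%). Over the 5 scalings the median log2 ratio of all genes tested ran from 0.062 to 0.31 in Lgals7-/- over wild-type, from 0.021 to 0.35 in Tg46 over wild-type and from -0.18 to 0.00 in Tg46 over Lgals7-/-. Under every one of them 9 of 12, 10 of 12 and 7 of 7 called members kept their call. The calls lost under 1 scaling or more were Mmp14, Adamts9 and Adamtsl5 in Lgals7-/- and Mmp10 and Adamtsl5 in Tg46, all over wild-type. Calls gained under 1 scaling or more were Adamts12, Adamts16, Mmp9 and Mmp19 in Lgals7-/- and Adamts16, Adamtsl1, Adamtsl4 and Mmp9 in Tg46 over wild-type, and Adamts18 in Tg46 over Lgals7-/-. Ratios of named members were recomputed with DESeq2 size factors, total counts, TMM factors from all identifiers and 5 added counts, not with upper-quartile factors. Of these 420 ratios, 419 stayed within their interval and 0 called ones reversed. The intervals are wide, so staying within them says little about robustness. Leaving out the most abundant gene of a class moved 8 summed ratios outside their interval. Matrilysin and metalloelastase became 7.87 in Lgals7-/- over wild-type and 0.327 in Tg46 over Lgals7-/-, and membrane-type genes 0.931 in Tg46 over Lgals7-/- (also 0.931 with no opposite-strand exon). In Tg46 over wild-type procollagen Adamts genes became 2.09, Adamts7 and Adamts12 0.637 (0.625 over Lgals7-/-), other Adamts genes 1.59 and Adamtsl genes 0.770. Collagenases without Mmp1a, a setting chosen after seeing the data, became 1.24 in Lgals7-/- over wild-type. Proteoglycan-cutting genes with no opposite-strand exon stood at 0.469 in Tg46 over wild-type. Without the most abundant proteinase and Timp2, the Mmp to Timp ratio was 49.5, 47.2 and 48.8 in wild-type, Lgals7-/- and Tg46, against 10.7, 19.5 and 16.2 with them. The Adamts to Timp ratio was 93.5, 62.8 and 65.0 without them, against 17.6, 26.3 and 21.4 with them. Wild-type thus went from the lowest to the highest library in both ratios, on Timp sums of 2, 5 and 5 counts. The cause of these shifts was not tested beyond the fewer genes they rest on. Depth limits every value: a member at 0 counts in wild-type could lie at 17.4 CPM.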
